A study of Mus musculus with 9 samples.

Results

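Zfp352/Zfp353-DKO and Parental cells are compared here with 6 of the 9 libraries of the series, 3 of each genotype, over every gene that passed a filter on low counts. The libraries hold polyadenylated RNA of EB5 cells, a male mouse embryonic stem cell line derived from E14tg2a (strain 129Ola) in which 1 copy of Pou5f1 carries an IRES-blasticidin resistance cassette (Oct3/4IRES-BSD-pA/+), so that both genotypes carry that allele. Cells were kept without feeder cells, on gelatin, in medium with fetal calf serum and leukemia inhibitory factor. Zfp352/Zfp353-DKO cells, called double knockout cells below, carry deletions of Zfp352 and Zfp353 made with CRISPR-Cas9, which cuts DNA at a site chosen by a guide RNA, and Parental cells carry neither deletion. The 3 Zfp352-KO libraries, in which Zfp352 alone was deleted, entered the fit to share its estimate of the spread. Whether an edited genotype is 1 clone, and whether its 3 libraries are separate cultures, is not in the labels. The deletions and the history of a clone therefore cannot be told apart, and a p-value covers the spread of these libraries alone, which could be technical.

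Zfp352 encodes a zinc finger protein and is known as a gene switched on when the embryonic genome is first transcribed, and again in the rare cells of an embryonic stem cell culture that resemble that stage. Cultures grown in serum and leukemia inhibitory factor are mixtures: most cells hold the naive pluripotent state, while others move towards the state of the postimplantation epiblast or express genes of the first differentiated lineages. In RNA from whole cultures, fewer cells of a type and less RNA per cell cannot be told apart. The amount of actin fibres and of matrix contacts is also read out as RNA, since the coactivators MRTF (with SRF) and YAP (with TEAD) enter the nucleus when cells spread and pull on their surface.

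Depth ran from 18369665 to 21506076 expected counts in the 6 libraries. No 2 libraries of a genotype agreed within sampling noise (chi-square over its degrees of freedom, 2.50 to 6.91 in 9 pairs). On the first principal component, which held 28.0% of the variance, the Parental libraries stood at -22.5, -20.2 and -14.5 and the double knockout libraries at 9.57, 10.7 and 16.1. The deviation of each library from the mean of the libraries was also correlated with transcript length across genes. The Spearman correlation was -0.307, -0.402 and -0.0813 in the Parental libraries and -0.127, -0.0218 and 0.362 in the double knockout libraries. With GC content it was 0.234, 0.191 and 0.365 in the Parental libraries and 0.222, -0.0781 and -0.363 in the double knockout libraries. These values are given as a description. Embryonic stem cell markers were high in all 6 libraries: Pou5f1, the core pluripotency factor, stood at 1144, 1122 and 1222 TPM (transcript abundance scaled for length and depth) in Parental and 1171, 1146 and 1096 TPM in double knockout cells. Zfp42, a marker of undifferentiated cells, stood at 1058, 1104 and 1047 TPM in the Parental libraries and 1046, 1101 and 1102 TPM in the double knockout libraries.

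Zfp352 checks the labels. Its RNA, from chr4:90218820-90225687 in GRCm38.p6, stood at 1.78, 2.05 and 1.76 TPM in the Parental libraries and 0.04, 0.04 and 0.14 TPM in the double knockout libraries. The groups did not overlap, and the 3 double knockout libraries held 5 counts of the gene together against 140 in the 3 Parental libraries. The log2 fold change was -4.64 ± 0.42, with an adjusted p of 8.01e-07 in edgeR's quasi-likelihood test after Benjamini-Hochberg adjustment. Throughout, the value after ± is an approximate standard error (SE, 3 libraries a genotype) worked back from that test. It is the size of the log2 fold change over the square root of the F statistic, and its spread is shared over the 9 libraries of the fit. For Zfp352, a gene of low counts, DESeq2 gave a larger SE of 0.72. Zfp353 is listed in RefSeq as the pseudogene Zfp353-ps at chr8:42081329-42083312 and was not analysed here, so its deletion was not checked. No other tested gene lay within 500 kb of either locus.

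Of 14300 genes tested, 1211 (8.47%) were called at an adjusted p under 0.05, 522 higher (3.65%) and 689 lower (4.82%) in the double knockout. The falls were the larger changes. At 2-fold or more, 103 genes were lower and 9 were higher, and at 4-fold or more 13 were lower and 0 higher. Among called genes the median log2 fold change was -0.41 for the falls and 0.28 for the rises, and over all tested genes it was -0.00. The 2-fold falls were genes of low or middling abundance. Under a mean Parental level of 1 TPM they were 32 of 1683 tested genes, and between 1 and 10 TPM 60 of 4721. Between 10 and 100 TPM they were 11 of 6346, and above 100 TPM 0 of 1550. Of the 9 rises of that size, 5 lay under 1 TPM and 4 between 1 and 10 TPM. Calls were spread over the genome, with 6.47% to 11.6% of tested genes called on each of the 20 chromosomes with at least 100 tested genes. In every omission of 1 of the 9 libraries, 285 of the falls and 108 of the rises were called; the total was 449 without Parental library 1, 649 without Parental library 2, 646 without double knockout library 2 and 686 without double knockout library 3. Genes called higher had longer transcripts (median 4816 bases) than genes called lower (2251 bases) or all tested genes (2803 bases), and with each library's trend on transcript length and GC content removed the split was 792 higher and 670 lower, with 940 of the 1211 genes still called in the same direction.

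**Figure D1:**
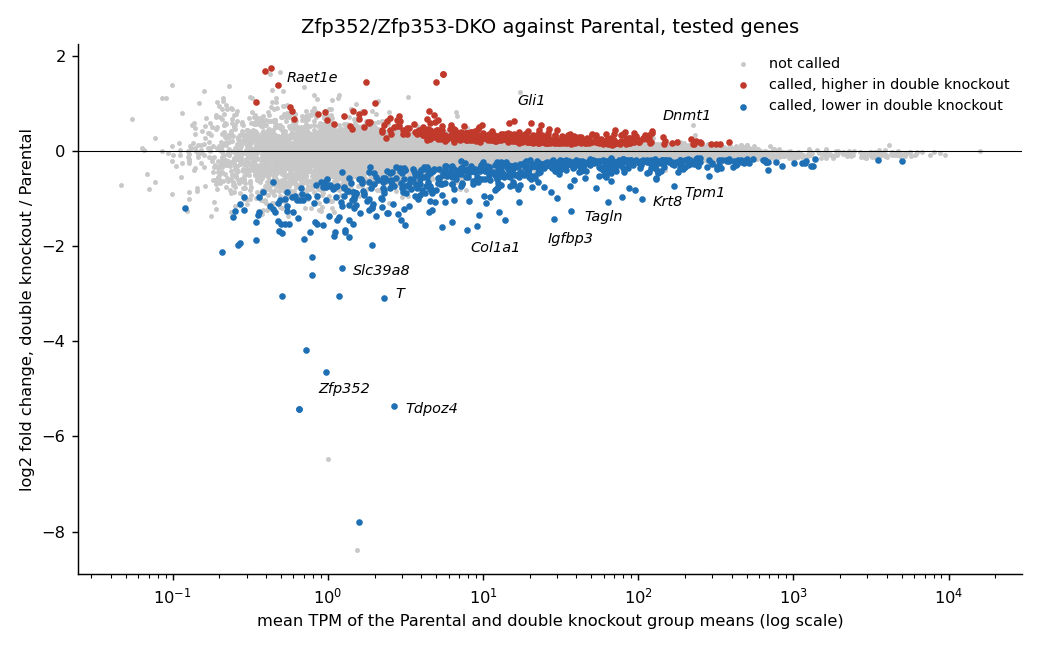
Each point is 1 of the 14300 tested genes, with the mean TPM of the genotype means on a log x axis and the log2 fold change of double knockout over Parental cells on the y axis; red and blue points are called higher (522) and lower (689), grey points are not called. The points reach further down than up: 103 genes fell and 9 rose by 2-fold or more, and the 2 lowest grey points are genes at 0 in at least 1 Parental library.

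The largest fall among the named genes was that of Sprr2a3, a small proline-rich protein of epithelial surfaces, at 4.23, 2.4 and 2.85 TPM in Parental and 0 TPM in all 3 double knockout libraries. With a floor of 3 counts over the group against 84.9 counts, it was at least 27.0-fold lower (adjusted p = 1.9e-05). Tdpoz4, a member of a multicopy family expressed in early embryos, stood at 5.89, 4.5 and 5.31 TPM in the Parental libraries and 0, 0.18 and 0.20 TPM in the double knockout libraries, a log2 fold change of -5.35 ± 0.43. Both genes have near-identical copies, and reads that the copies share had to be divided between them, so their values are uncertain. T, or brachyury, the T-box factor of the primitive streak, was at 5.43, 2.76 and 4.23 TPM in the Parental libraries and 0.48, 0.58 and 0.42 TPM in the double knockout libraries. The lowest Parental library was still above every double knockout library, and the log2 fold change was -3.09 ± 0.33 (adjusted p = 5.27e-06).

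Slc39a8, which carries zinc into cells, fell by 2.45 ± 0.28 on the log2 scale, from 2.18, 1.72 and 2.3 TPM to 0.26, 0.40 and 0.53 TPM. Wisp1, a secreted WNT target, and Wnt4, a WNT ligand, changed by -1.80 ± 0.16 and -1.54 ± 0.20. Wnt4 was at 2.23, 2.09 and 2.1 TPM in the Parental libraries and 0.46, 0.88 and 0.96 TPM in the double knockout libraries, again without overlap. Prss23, a secreted serine protease, was close within each genotype, at 4.45, 4.52 and 5.09 TPM and 1.67, 1.59 and 1.67 TPM, and fell by 1.54 ± 0.12. Cyp26a1, the enzyme that breaks down retinoic acid, changed by -1.44 ± 0.31 (adjusted p = 0.00629). The remaining genes among the 15 largest falls were Col1a1, Gbp2b, Tcstv3, Cnn1, Anxa3 and Igfbp3, described with their groups, and Esp24, which encodes a secreted exocrine peptide and lost its call without Parental library 1 (adjusted p = 0.0824), double knockout library 2 (0.0596) or double knockout library 3 (0.0837).

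The rises were smaller and more of them rested on single libraries. Mcf2, a guanine nucleotide exchange factor, rose from 2.9, 3 and 3.57 TPM to 5.5, 5.97 and 5.84 TPM, a log2 fold change of 0.84 ± 0.10 (adjusted p = 3.5e-05). Zeb1, a repressor of epithelial genes, stood at 3.15, 3.43 and 3.34 TPM in the Parental libraries and 5.15, 5.53 and 5.59 TPM in the double knockout libraries and rose by 0.67 ± 0.09. For both genes the groups stood well apart and the call stayed in every alternative. Kbtbd11 (0.59 ± 0.08), Mtap7d3 (0.62 ± 0.11) and Txlnb (0.63 ± 0.14) kept their calls as well, as did Gli1, described with the Hedgehog genes. The largest rise was that of Raet1e, a ligand of the NKG2D receptor with near-identical copies, at 0.77, 1.28 and 0.69 TPM in the Parental libraries and 2.76, 2.41 and 2.7 TPM in the double knockout libraries; its log2 fold change was 1.45 ± 0.35, and the call was lost without Parental library 1 (adjusted p = 0.0902) or 3 (0.0529). Bmi1, a Polycomb group gene, rose by 0.66 ± 0.15 from 1.63, 2.28 and 2.43 TPM to 3.05, 3.2 and 4.07 TPM and lost its call without Parental library 1 (0.0879) or double knockout library 3 (0.0535). Il17f, Serpinb9e, Zkscan7, Efhd1, Fam189a2, Snhg14 and Hnf4a, with log2 fold changes of 0.59 to 1.02, each lost the call on omission of at least 3 single libraries.

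**Figure D2:**
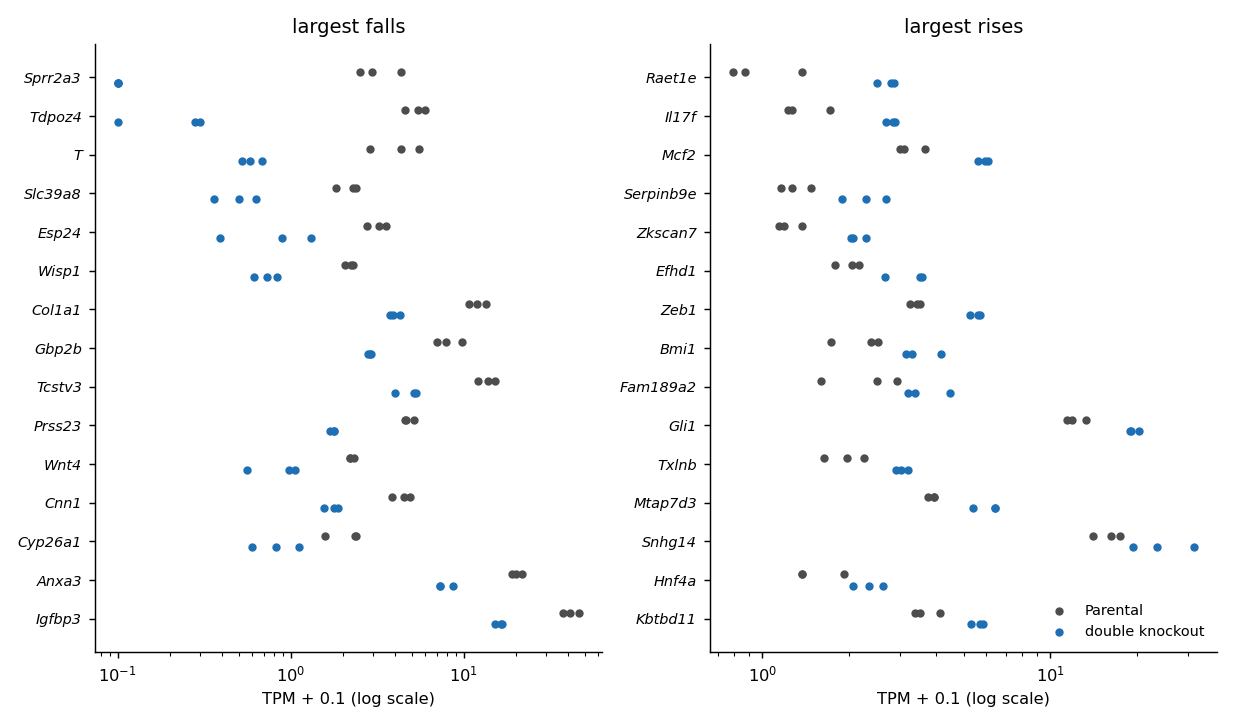
Each point is the TPM of 1 library plus 0.1 on a log x axis, for the 15 named genes with the largest falls (left) and the 15 with the largest rises (right); grey points are the 3 Parental and blue points the 3 double knockout libraries. The groups do not overlap for any of the 30 genes, which the rule for naming required, and the falls span a wider range than the rises.

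Genes of the contractile actin cytoskeleton were the group with the most calls. Counts of this list and of those below stand against 3.65% of all tested genes called higher and 4.82% called lower. Of 26 tested members, 19 were called lower and 0 higher, and the median log2 fold change was -0.40 beside -0.00 over all tested genes; the 26 estimates were all negative. Tagln (transgelin), an actin-bundling protein of smooth muscle, stood at 49.5, 51 and 54.9 TPM in the Parental libraries and 21.2, 22.2 and 23.9 TPM in the double knockout libraries. Its double knockout libraries lay far below its Parental ones, and the log2 fold change was -1.25 ± 0.08 (adjusted p = 3.23e-09). Cnn1 (calponin 1), which binds actin and slows myosin, changed by -1.45 ± 0.19, and Flnc (filamin C), an actin crosslinker, by -1.04 ± 0.07 from 10.8, 10 and 11.7 TPM to 4.94, 5.54 and 5.85 TPM. Acta2, smooth muscle actin, was at 13.7, 13.7 and 16 TPM in the Parental libraries and 6.86, 8.22 and 7.72 TPM in the double knockout libraries and fell by 0.97 ± 0.10. Tpm1 (tropomyosin 1), which winds along actin filaments, was the most abundant of the 5, at 218, 203 and 202 TPM and 129, 133 and 129 TPM; within each genotype its libraries were close, and the log2 fold change was -0.73 ± 0.05. The 14 other calls ran from -0.86 ± 0.20 for Myl9, a regulatory light chain of myosin, to -0.18 ± 0.05 for Actn4. The cytoplasmic actins that every cell uses changed little: Actg1 was called (-0.19 ± 0.05), and Actb (-0.07 ± 0.06, adjusted p = 0.481) was not, nor were the adhesion proteins Vcl (-0.08 ± 0.05) and Tln1 (-0.02 ± 0.06). With 1 library left out, 15 to 19 members were called lower.

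Targets of YAP and TEAD moved in the same direction, with 11 of 21 tested members lower, 1 higher and a median log2 fold change of -0.51. Thbs1 (thrombospondin 1), a matrix glycoprotein, stood at 17, 16.9 and 19.9 TPM in the Parental libraries and 7.05, 8.02 and 7.65 TPM in the double knockout libraries. The groups were far apart relative to their spread, and Thbs1 had the smallest adjusted p of the named genes (9.95e-10), with a log2 fold change of -1.28 ± 0.07. Igfbp3, which binds insulin-like growth factors, changed by -1.43 ± 0.08 from 46.4, 37.6 and 41.2 TPM to 15.1, 16.2 and 16.5 TPM. Cyr61 and Ctgf, the matricellular proteins most used as readouts of YAP, changed by -1.06 ± 0.08 and -0.57 ± 0.08. Cyr61 was at 23.6, 22.2 and 22.7 TPM in the Parental libraries and 9.92, 11.6 and 12.3 TPM in the double knockout libraries. Nt5e, Tgfb2, Axl, Gadd45b, F3, Fjx1 and Amotl2 were also called lower, by -0.43 to -1.36, and Myof was the member called higher (0.36 ± 0.07). Ankrd1 was under 1.3 TPM in every library and was not called (-0.72 ± 0.30, adjusted p = 0.148).

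**Figure D3:**
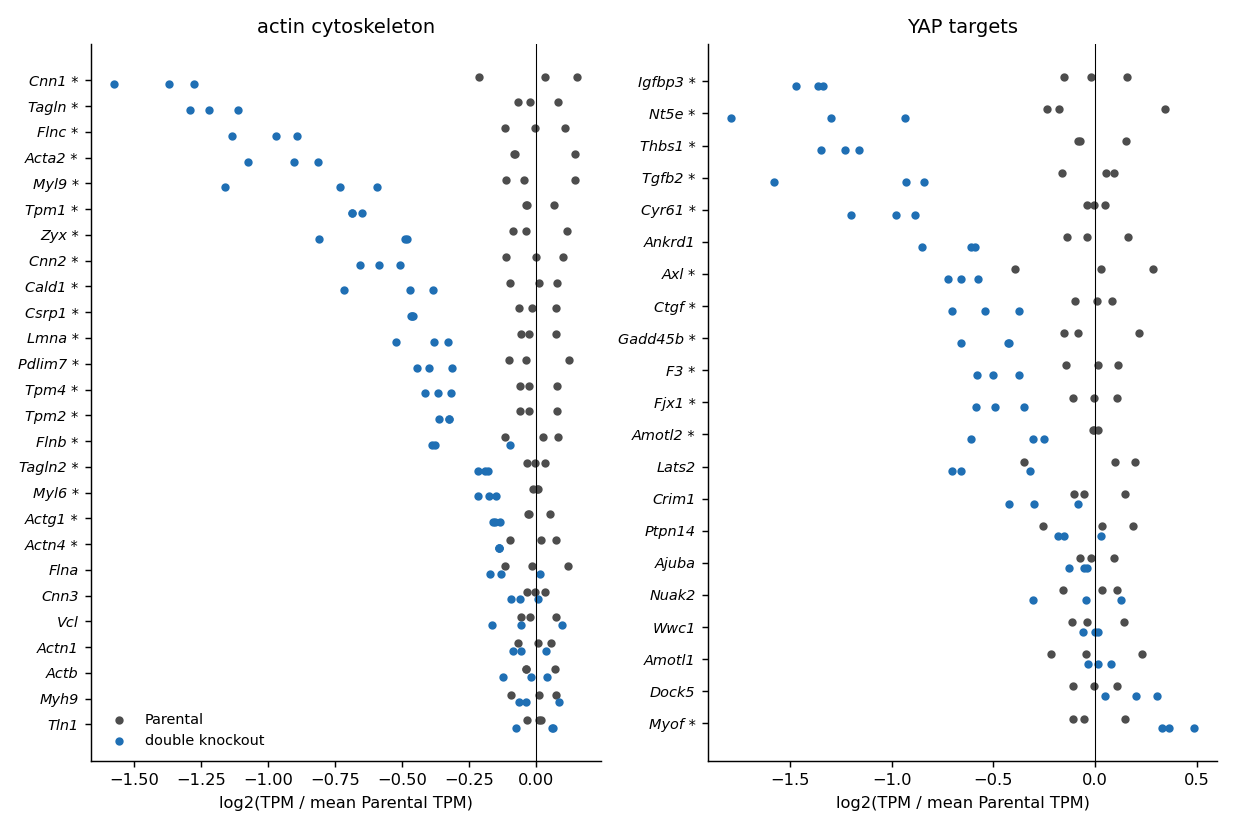
Each point is the log2 ratio of the TPM of 1 library to the mean Parental TPM of that gene, for the 26 tested actin genes (left) and the 21 tested YAP targets (right); grey points are Parental and blue points double knockout libraries, and an asterisk marks a called gene. Cnn1, Tagln, Flnc and Acta2 lie furthest left among the actin genes and Igfbp3, Nt5e and Thbs1 among the YAP targets, and Myof is the called gene to the right of 0.

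The promoters of these genes are shown because both groups are textbook targets of factors with known recognition letters. These are GGAATG for TEAD, which reads CATTCC on the other strand, and the CArG box for SRF. In the 250 bases before the start site, on either strand, GGAATG was found in 12.6% of the 32851 RefSeq promoters in the table (GRCm38.p6) and in 10.8% of those of tested genes. It was found in 15.4% of the promoters of genes called lower and 10.0% of those of genes called higher, in 3 of the 8 promoters of YAP targets called lower and in 6 of the 22 promoters of actin genes called lower. A CArG box was found in 1.11% of the promoters of tested genes, in 2.66% of those called lower and 1.32% of those called higher, in 4 of the 22 actin promoters and in 0 of the 8 of YAP targets. Some genes have several promoters in the table, and 8 of the 11 YAP targets and 17 of the 19 actin genes called lower had an entry. The lines give the 150 bases that end 1 base before the start site, 5′ to 3′ on the strand of the gene, with the motif in capitals: CATTCC or GGAATG in Cyr61 (chr3:145649986-145650135, minus strand), Amotl2 (chr9:102717654-102717803, plus strand) and Tpm1 (chr9:67049214-67049363, minus strand), and a CArG box in Cnn2 (chr10:79988450-79988599, plus strand) and Actg1 (chr11:120348496-120348645, minus strand).
Cyr61: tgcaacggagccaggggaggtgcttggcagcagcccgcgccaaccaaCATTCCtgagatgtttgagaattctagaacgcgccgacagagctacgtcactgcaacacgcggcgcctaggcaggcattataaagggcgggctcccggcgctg
Amotl2: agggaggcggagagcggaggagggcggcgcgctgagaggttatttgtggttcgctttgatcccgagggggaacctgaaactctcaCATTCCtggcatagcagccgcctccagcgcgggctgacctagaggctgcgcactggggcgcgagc
Tpm1: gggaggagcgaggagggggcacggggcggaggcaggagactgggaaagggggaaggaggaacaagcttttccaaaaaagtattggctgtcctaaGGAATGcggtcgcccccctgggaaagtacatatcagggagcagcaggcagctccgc
Cnn2: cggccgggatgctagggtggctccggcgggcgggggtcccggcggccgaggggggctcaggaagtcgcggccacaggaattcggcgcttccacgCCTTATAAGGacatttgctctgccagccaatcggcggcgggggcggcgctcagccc
Actg1: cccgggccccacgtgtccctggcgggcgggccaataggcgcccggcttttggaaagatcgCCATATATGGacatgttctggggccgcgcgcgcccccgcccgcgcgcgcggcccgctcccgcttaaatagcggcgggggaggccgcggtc
The printed stretches were picked because they hold a motif, and the promoters of Cnn1 and Igfbp3 held neither in the bases searched. Members of these lists that were not called were not scanned apart. The shares therefore cannot tell called members from the rest of lists made of known targets. A match is a description of these letters and not a site shown to be bound.

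Other proteins of the cell surface and its inner face were also lower. Among calcium-binding S100 proteins and annexins, 9 of 15 tested members were called lower and 0 higher, with a median log2 fold change of -0.44, and 6 to 9 were called with 1 library left out. Anxa3, which binds membranes in the presence of calcium, stood at 21.5, 20.1 and 18.8 TPM in the Parental libraries and 7.22, 7.2 and 8.6 TPM in the double knockout libraries. Every double knockout library was far below every Parental library, and the log2 fold change was -1.44 ± 0.10. Anxa1, S100a6 and S100a10, the partner of annexin A2, changed by -0.86 ± 0.09, -0.77 ± 0.08 and -0.44 ± 0.06. Of the 6 tested genes of caveolae, the small pits of the membrane, Cav1 (-1.30 ± 0.23) and Ptrf, the coat protein cavin 1 (-0.50 ± 0.06), were called lower, and the median was -0.71. Ptrf stood at 21.6, 20.7 and 20.9 TPM in the Parental libraries and 14.7, 15.6 and 15.8 TPM in the double knockout libraries.

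Of the fibrillar collagen genes, Col1a1, Col1a2, Col3a1 and Col5a1 fell, and Col5a2 was not called (-0.37 ± 0.12, adjusted p = 0.0601). Col1a1 and Col1a2 encode the chains of type I collagen. Col1a1 stood at 10.7, 11.8 and 13.3 TPM in the Parental libraries and 3.63, 3.8 and 4.19 TPM in the double knockout libraries. Col1a2 went from 5.77, 5.99 and 7.11 TPM to 2.59, 2.69 and 2.77 TPM. Neither gene overlapped between genotypes, and the log2 fold changes were -1.66 ± 0.09 and -1.27 ± 0.09. Col5a1, a chain of type V collagen, changed by -0.81 ± 0.07. Col3a1, the type III chain, stood at 1.15, 1.01 and 1.62 TPM in the Parental libraries and 0.46, 0.40 and 0.49 TPM in the double knockout libraries and changed by -1.52 ± 0.21. In the whole list of fibroblast-type genes, 8 of 18 tested members were called lower and 0 higher, with a median of -0.40. Of these estimates 4 were positive, and the collagen gene Col6a3 had the highest (1.13) and was not called. With the length and GC trend removed, 1 member was called higher. The summed TPM of the list was 470 to 518 in Parental and 412 to 464 in double knockout libraries. Of the defining markers of fibroblasts, Col1a1 and Col3a1 were called lower, with the values above. Thy1 (-0.12 ± 0.13), Pdgfrb (-0.26 ± 0.22) and Postn (-0.99 ± 0.38) were not called. Dcn was at most 0.15 TPM in each of the 6 libraries, and Lum was at 0 TPM in 5 of them and 0.05 TPM in the sixth. The list holds Tagln, Acta2 and S100a6, which are counted above too. The part of fibroblast-type cells in these falls was not tested.

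Type IV collagen genes fell, and basement membrane genes as a list were called in both directions. Col4a1 and Col4a2, the paired chains of type IV collagen, changed by -0.49 ± 0.08 and -0.61 ± 0.09. Col4a1 stood at 22.1, 20.5 and 25.9 TPM in the Parental libraries and 15.5, 16.3 and 18.2 TPM in the double knockout libraries. Lama1, the alpha chain of the first embryonic laminin, was at 12.7, 12 and 14.1 TPM in the Parental libraries and 15.7, 15.9 and 19.8 TPM in the double knockout libraries and rose by 0.37 ± 0.07. Over the basement membrane list, 5 of 18 tested genes were called lower and 4 higher (Lama1, Nid1, Nid2 and Hspg2), and the count of rises was 1 without Parental library 1 and 2 without Parental library 2 or double knockout library 3. The count of falls was 3 without Parental library 1 or double knockout library 2. Among integrins, the receptors that hold cells to these proteins, Itga3 fell from 46.5, 44.4 and 47.7 TPM to 31.2, 32.8 and 29.4 TPM (-0.61 ± 0.05). Itga9 rose from 5.33, 5.09 and 5.82 TPM to 7.42, 7.93 and 7.69 TPM (0.47 ± 0.06). Of 14 tested integrin genes 3 were called lower and 1 higher, and the calls of Itga1 and Itgb1 were lost without Parental library 1, among other omissions (adjusted p = 0.159 and 0.15). The count of falls was 1 without Parental library 1 or double knockout library 1 or 2.

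Simple epithelial keratins fell from high levels. Krt8 and Krt18 form one filament, and Krt19 pairs with Krt8 in the same epithelia. Krt8 stood at 149.6, 137 and 130.4 TPM in the Parental libraries and 68.8, 77 and 69.1 TPM in the double knockout libraries. Krt18 was at 131, 121 and 108 TPM in Parental and 68.7, 72.7 and 68.1 TPM in double knockout libraries. Krt19 went from 92.7, 89.6 and 73.3 TPM to 40.1, 45.5 and 40.5 TPM. The genotypes did not overlap, and the log2 fold changes were -0.998 ± 0.07, -0.82 ± 0.07 and -1.06 ± 0.08. These genes stand in the list for trophectoderm, the outer layer of the blastocyst, with Cdx2 (-1.69 ± 0.27; 2.24, 1.58 and 2.08 TPM against 0.54, 0.87 and 0.45 TPM), a factor that sets up that lineage, and Hand1 (-0.70 ± 0.12). Of 18 tested members 6 were called lower and 0 higher, the median was -0.09, and the summed TPM was 644 to 706 in Parental and 504 to 507 in double knockout libraries. Of the defining factors of the lineage, Cdx2 was called lower and Eomes (-0.07 ± 0.14) and Gata3 (-0.03 ± 0.23) were not called. Elf5 was under 1 TPM in every library and not tested.

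Genes of cell-cell contacts were lower in part. Of 20 tested genes of epithelial junctions 10 were called lower and 0 higher, with a median log2 fold change of -0.24; without double knockout library 2 the count was 5. The claudins of tight junctions Cldn6 and Cldn7 changed by -0.55 ± 0.07 and -0.70 ± 0.11. Cldn6 stood at 55.7, 54.5 and 50.8 TPM in the Parental libraries and 38.8, 35.5 and 38.7 TPM in the double knockout libraries. The desmosome protein Pkp2 (-0.26 ± 0.05) and the splicing factor of epithelial cells Esrp1 (-0.29 ± 0.05) fell as well, and Cdh1, E-cadherin, changed by -0.15 ± 0.05 with an adjusted p of 0.0457. Markers of the mesenchymal state did not rise together: Vim (vimentin) fell from 148, 161 and 152 TPM to 104, 111 and 105 TPM (-0.57 ± 0.05), Cdh2 (N-cadherin) fell by 0.50 ± 0.08 and Zeb1 rose. In that list of 11 tested genes 3 were called lower and 1 higher, and Twist2 lost its call without any 1 of the 3 Parental libraries (adjusted p = 0.0659, 0.0706 and 0.166).

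WNT signalling acts through beta-catenin and TCF factors and turns on genes of the primitive streak. Of 13 tested WNT targets 6 were called lower and 0 higher, with a median log2 fold change of -0.29: T, Wisp1, Cdx2, Sp5, Axin2 and Lef1. Sp5, a direct target that feeds back on the pathway, was at 1.93, 1.24 and 1.9 TPM in the Parental libraries and 0.39, 0.47 and 0.66 TPM in the double knockout libraries and changed by -1.79 ± 0.29. Axin2, a negative feedback gene, changed by -0.45 ± 0.10, and the target Ccnd1 was not called (-0.08 ± 0.05). Of the 13 estimates 4 were positive, and Rnf43 had the highest (0.59) and was not called. With the length and GC trend removed, 1 member was called higher. Of the 8 tested genes of the primitive streak list T, Sp5 and Hand1 were called lower, and the median was -0.74. All of them are counted above too, T and Sp5 as WNT targets and Hand1 in the trophectoderm list. Without Parental library 2 or Zfp352-KO library 1 or 3, 5 were called. Mixl1 (-0.83 ± 0.37, adjusted p = 0.174) and Eomes were not called, and 8 members, Gsc among them, were too low to be tested.

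Genes of the Hedgehog pathway were called higher or not at all. Ligands of this pathway bind PTCH receptors, which frees the GLI transcription factors to act, and Gli1, Ptch1 and Hhip are themselves targets. The ligand genes Shh and Dhh were too low to be tested and Ihh was not called (-0.06 ± 0.49). Among receptors and their regulators, Ptch1 stood at 18.5, 15.8 and 22 TPM in the Parental libraries and 26.5, 25.3 and 33.7 TPM in the double knockout libraries and rose by 0.56 ± 0.10 (adjusted p = 0.00178), and Hhip, a decoy receptor near 1 TPM, rose by 0.79 ± 0.17 with the call lost without Parental library 1 (0.0571). Smo, the transducer held in check by PTCH, was not called (-0.18 ± 0.07). Gli1 stood at 11.8, 11.4 and 13.2 TPM in the Parental libraries and 20.3, 18.9 and 18.8 TPM in the double knockout libraries, with every double knockout library above every Parental one, and rose by 0.64 ± 0.07 (adjusted p = 4.57e-06). Gli2 was called (0.25 ± 0.07, adjusted p = 0.0418) and lost the call without Parental library 1 (0.22), among other omissions. In all 4 of 12 tested members were called higher and 0 lower (33.3%, against 8.47% of all tested genes). The median was 0.11, and 2 to 5 were called with 1 library left out.

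Of the core pluripotency factors, Pou5f1 and Nanog were not called and Sox2 rose. Of 24 tested naive and core factors 6 were called higher and 2 lower (33.3%, against 8.47% of all tested genes), with a median log2 fold change of 0.05. With 1 library left out, 4 to 7 were higher and 1 to 5 lower: 5 were lower without Parental library 3, and 1 without Parental library 1 or 2, double knockout library 2 or 3 or Zfp352-KO library 2. Nanog, at 403, 405 and 406 TPM in the Parental libraries and 386, 407 and 429 TPM in the double knockout libraries, was not called (-0.02 ± 0.04, adjusted p = 0.809), and neither was Pou5f1 (-0.07 ± 0.05, 0.413). Sox2 rose by 0.19 ± 0.04, from 357, 347 and 352 TPM to 393, 414 and 434 TPM. Tfcp2l1 and Tbx3, factors that hold naive cells in self-renewal, rose by 0.37 ± 0.06 and 0.30 ± 0.05, and Tcl1, a coactivator of AKT, by 0.36 ± 0.06. Tfcp2l1 was at 29.4, 29.7 and 34.1 TPM in the Parental libraries and 38.1, 39.9 and 45.8 TPM in the double knockout libraries, with no overlap. Dppa3 (Stella), a gene of the naive state and of germ cells, fell by 0.34 ± 0.06 from 230.4, 227 and 203 TPM to 178, 181 and 180.0 TPM.

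The formative and primed states are those of the postimplantation epiblast. Of 20 tested genes of their list, 9 were called lower and 1 higher (Zic2), with a median of -0.22. Without Zfp352-KO library 1 or 3, 2 were higher. The falls include Nes, Cldn6 and Cdh2, which are not factors that define these states. Cldn6 and Cdh2 are counted above too, with the junction and mesenchymal genes. Pou3f1 (Oct6), a POU factor of the epiblast, stood at 16, 14.1 and 15.3 TPM in the Parental libraries and 9.4, 10.4 and 9.76 TPM in the double knockout libraries. The groups were separate, and the log2 fold change was -0.66 ± 0.08. Nes (nestin), an intermediate filament of neural progenitors, fell from 16.1, 16.6 and 15.4 TPM to 9.68, 9.97 and 10.8 TPM (-0.70 ± 0.06). Otx2 (0.19 ± 0.06) and Fgf5 (-0.67 ± 0.31), defining factors of these states, were not called. Nes was the single call among 7 tested genes of neuroectoderm, whose median was -0.01; Sox1 (0.02 ± 0.29) and Pax6 (0.15 ± 0.08) were not called.

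The signals that keep or move these states were described by their members. In the LIF list the receptor gene Lifr rose (0.37 ± 0.07) and the targets Socs3 (-0.19 ± 0.05) and Junb (-0.34 ± 0.08) fell, both calls being lost without Parental library 1 (adjusted p = 0.114 and 0.0773), and of 12 tested members 3 were called higher and 2 lower (41.7%, against 8.47% of all tested genes). The count of falls was 0 without Parental library 1 and 1 without Parental library 2 or double knockout library 2 or 3. Feedback regulators of FGF and ERK had 3 calls higher and 2 lower of 12 tested (41.7%). The count of rises was 1 without Parental library 1 or 2 or double knockout library 2 or 3, and that of falls was 1 without Parental library 2 or double knockout library 2. Spry4 rose from 69.4, 69.5 and 71.8 TPM to 82.1, 83.1 and 88.1 TPM (0.23 ± 0.04) and Phlda1 fell (-0.69 ± 0.14). Of 11 tested NODAL genes 2 were called higher and 2 lower (36.4%). The receptor gene Acvr1b rose (0.29 ± 0.06), a call that stayed in every alternative. The calls of Lefty1, an inhibitor of NODAL (-0.21 ± 0.06), and the receptor gene Acvr2a (0.32 ± 0.10) were each lost without any 1 of the 3 Parental libraries or without double knockout library 2 or 3, and that of Lefty1 also without double knockout library 1 or Zfp352-KO library 2. Nodal was not called (-0.01 ± 0.05). Id3 (-0.29 ± 0.07) and Smad6 (-0.37 ± 0.10) were the 2 calls among 12 tested BMP targets (16.7%, with 4.82% of all tested genes lower). The count was 0 without double knockout library 3 and 1 without Parental library 1 or 2 or double knockout library 1.

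Immediate early genes, which serum and growth factors switch on within minutes, were lower in part. Of 19 tested members 9 were called lower and 0 higher, with a median of -0.28, and 4 were called without Parental library 1. Fosl2 and Atf3, which encode partners of the AP-1 complex, had the largest falls. Fosl2 stood at 2.94, 3.1 and 3.18 TPM in the Parental libraries and 1.3, 1.16 and 1.74 TPM in the double knockout libraries. Atf3 went from 5.15, 4.22 and 4.24 TPM to 1.87, 1.64 and 2.87 TPM. No library of the 2 genotypes overlapped for these genes, and the log2 fold changes were -1.18 ± 0.13 and -1.15 ± 0.18. Zfp36, which destabilises messenger RNAs, and Dusp1, a phosphatase of MAP kinases, changed by -0.48 ± 0.07 and -0.37 ± 0.07. Fos (-0.30 ± 0.20) and Egr1 (-0.19 ± 0.09) were not called.

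Genes of the 2-cell-like state were divided. Of 28 tested members 7 were called lower and 2 higher (32.1%), and the median was -0.08. The 7 include Zfp352, the deleted gene, whose fall was set by the design. Beside Zfp352 itself and Tdpoz4, Tcstv3 stood at 15, 13.6 and 12 TPM in the Parental libraries and 3.89, 5.17 and 5.06 TPM in the double knockout libraries and changed by -1.58 ± 0.17. Tcstv1 had the highest estimate of the list, 1.15 ± 0.36, opposite in sign to that of Tcstv3; it stood at 2.15, 2.91 and 0.91 TPM in the Parental libraries and 4.28, 5.62 and 3.98 TPM in the double knockout libraries and was not called (adjusted p = 0.0552). Calcoco2, a receptor of selective autophagy, fell from 166, 140.4 and 153 TPM to 100.3, 103 and 113 TPM (-0.58 ± 0.06). Dux, the factor that turns this programme on, was not called (0.24 ± 0.22, adjusted p = 0.542). Zscan4c, a marker of the state, stood at 43.2, 39.3 and 36.8 TPM in the Parental libraries and 40.4, 44.8 and 51.1 TPM in the double knockout libraries, with overlapping groups (0.14 ± 0.07). The Tcstv and Zscan4 genes are near-identical copies whose shared reads had to be divided. The 2 calls in the other direction, Zscan4a and Tmem92, were lost without Parental library 1 or double knockout library 2 or 3, where 0 members were called higher, and 1 was called without Parental library 3.

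Of 17 tested genes of the primitive endoderm list 6 were called lower and 2 higher (47.1%), with a median of -0.07. The falls include the matrix genes Sparc, Serpinh1, Col4a1 and Col4a2, and Col4a1 and Col4a2 are counted above too, with the basement membrane genes. Sparc, a collagen-binding glycoprotein, stood at 155, 153 and 152 TPM in the Parental libraries and 117, 112 and 116 TPM in the double knockout libraries and changed by -0.46 ± 0.05, and Serpinh1, the collagen chaperone, by -0.49 ± 0.06. Gata4 (0.22 ± 0.17), Gata6 (0.39 ± 0.42), Sox17 (0.27 ± 0.45) and Sox7 (-0.07 ± 0.38) were not called and were each near or under 2 TPM. Hnf4a, an endoderm transcription factor, had the highest estimate of the list and was called higher (0.59 ± 0.16, adjusted p = 0.0244). It stood at 1.28, 1.27 and 1.82 TPM in the Parental libraries and 1.96, 2.25 and 2.53 TPM in the double knockout libraries, and the call was lost without Parental library 1 or 2 or double knockout library 2 or 3, where 1 member was called higher.

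Genes of antigen presentation and the interferon response were lower in part. Of 26 tested members 10 were called lower and 0 higher, with a median of -0.26; without double knockout library 2 the count was 6. Gbp2 and Gbp2b, guanylate-binding proteins induced by interferon, changed by -1.34 ± 0.12 and -1.59 ± 0.13. Gbp2 stood at 15.6, 11.8 and 12.6 TPM in the Parental libraries and 4.81, 4.98 and 6.54 TPM in the double knockout libraries; the copies are similar and share reads. Psmb10, a subunit of the immunoproteasome, fell from 50.1, 44 and 39.7 TPM to 28.2, 26.7 and 28.4 TPM (-0.73 ± 0.09), and H2-K1, a class I heavy chain, by 0.40 ± 0.07. B2m, the class I light chain, was not called (-0.27 ± 0.10).

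The calls among genes of metabolism moved with single libraries. Of 31 tested genes of glycolysis and hypoxia 2 were lower (6.45%, against 4.82% of all tested genes), Ldha (-0.25 ± 0.06) and Ddit4 (-0.35 ± 0.09), and both calls were lost without Parental library 1 (adjusted p = 0.13 and 0.14). The count was 0 without Parental library 1 or 2 or double knockout library 2, 5 without Parental library 3 or Zfp352-KO library 2 and 7 without Zfp352-KO library 3. Of 24 tested genes of cholesterol synthesis 4 were lower (16.7%), with 1 to 4 called when 1 library was left out, fewest without Parental library 1 or double knockout library 2, and Fdps, farnesyl diphosphate synthase, was the call that stayed without any 1 library, at 161, 159.9 and 162 TPM in the Parental libraries and 129, 126 and 137 TPM in the double knockout libraries (-0.34 ± 0.05). The metallothioneins Mt1 and Mt2, which bind zinc, changed by -0.40 ± 0.06 and -0.31 ± 0.06. Mt1 stood at 789, 807 and 729 TPM in the Parental libraries and 616, 618 and 584 TPM in the double knockout libraries, without overlap. With Slc39a8 they made 3 calls lower of 18 tested genes of zinc balance, with 1 higher and a median of 0.01; the higher call was lost without Parental library 1 or 2 or any 1 double knockout library. Of 17 tested p53 targets 1 was called higher and 1 lower (11.8%, against 8.47% of all tested genes), and 0 to 2 were higher with 1 library left out (0 without Parental library 1 or 2 or double knockout library 3). Of 17 tested ATF4 targets 3 were lower and 0 higher (17.6%), and 1 was lower without Parental library 1 or double knockout library 2. Perp (-0.41 ± 0.07) and Phgdh (-0.25 ± 0.06) were the calls of these lists that stayed in every alternative.

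Enzymes of DNA methylation were called singly. Dnmt1, which copies methylation to the new strand at replication, stood at 101, 101 and 106 TPM in the Parental libraries and 137, 141 and 148 TPM in the double knockout libraries. All 3 double knockout libraries were higher, and the log2 fold change was 0.44 ± 0.04 (adjusted p = 2.04e-06). Tet2, which oxidises methylcytosine, rose from 21.4, 19.3 and 25.4 TPM to 29.3, 30 and 34.2 TPM (0.46 ± 0.08), and Dnmt3a, a de novo enzyme, fell (-0.22 ± 0.05); Uhrf1, the partner of Dnmt1, was not called (0.01 ± 0.04). Of 19 tested genes of heterochromatin silencing 2 were called higher, Fam208a (0.33 ± 0.08) and Smarcad1 (0.19 ± 0.06), which is 10.5% of the list against 8.47% of all tested genes. The count was 0 without Parental library 1 or 2 or double knockout library 2 or 3 and 1 without Parental library 3 or Zfp352-KO library 2. Of 17 tested germline genes 4 were lower (23.5%, with 4.82% of all tested genes lower) and 2 without Parental library 1 or 3 or double knockout library 3, with Tex19.1 at 157, 161 and 154 TPM in the Parental libraries and 118, 119.9 and 129 TPM in the double knockout libraries (-0.41 ± 0.06). Imprinted genes had 5 calls lower of 27 tested (18.5%) and a median of -0.00, and 3 calls without Parental library 1 or double knockout library 3. Nnat (neuronatin) was the largest of them, at 27.4, 25.1 and 24.1 TPM and 15.3, 16.5 and 15 TPM (-0.76 ± 0.10), and Phlda2, a brake on placental growth, changed by -0.35 ± 0.07.

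**Figure D4:**
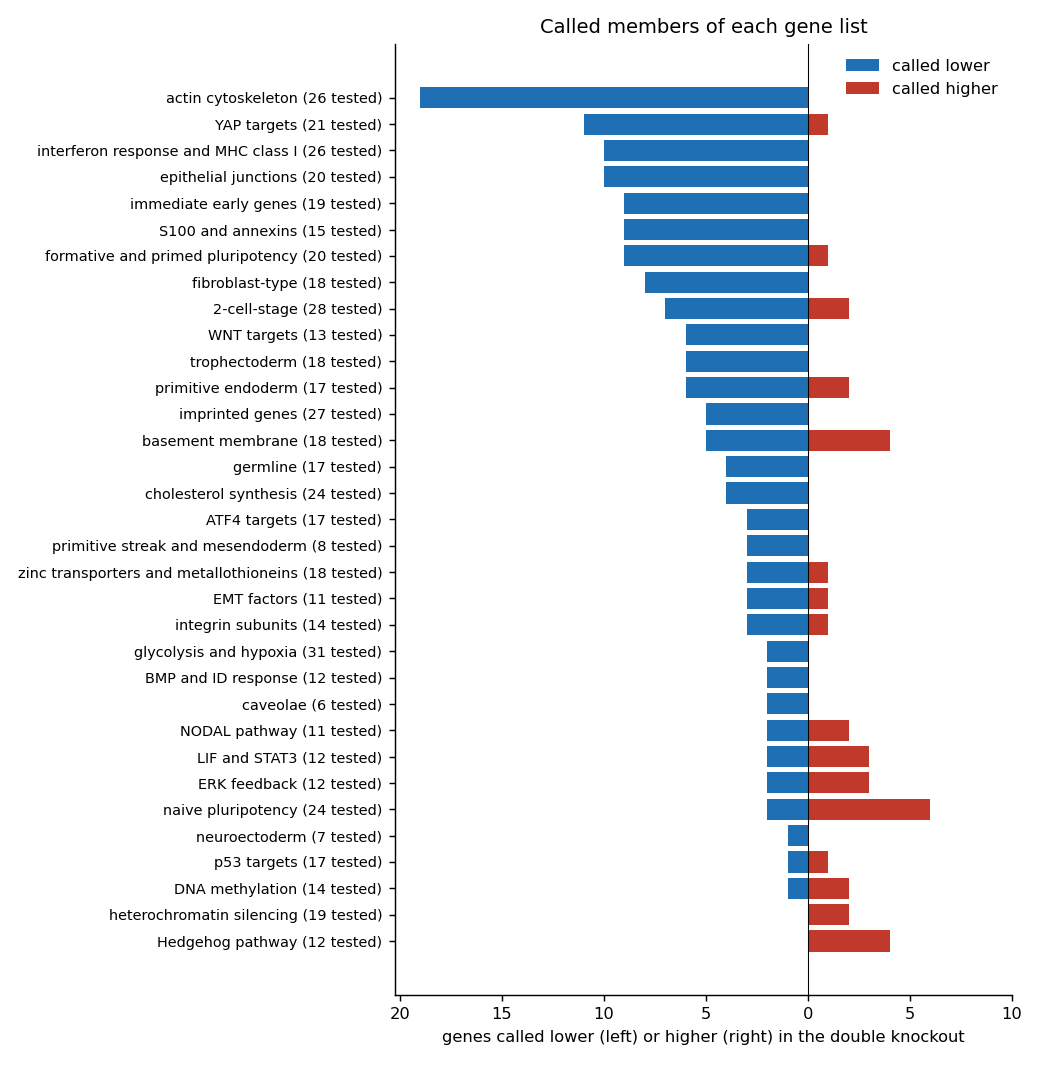
Bars give the number of called members of each of the 33 gene lists, lower in the double knockout to the left and higher to the right, with the number of tested members beside the name of the list. The actin list has the longest bar to the left (19 of 26), and the Hedgehog and heterochromatin lists have bars to the right alone (4 and 2).

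The same fit gave each edited genotype against Parental cells and the difference between the 2 edited genotypes. The comparisons with Parental cells share the same 3 control libraries, so no measure of their likeness is given. In Zfp352-KO over Parental cells, 14 actin genes were called lower (0 higher), 9 YAP targets (2 higher) and 8 fibroblast-type genes (1 higher). Of the trophectoderm and WNT lists 6 each were lower and 0 higher, and of the Hedgehog list 3 were higher and 0 lower. T changed by -2.65 ± 0.31, Krt8 by -0.78 ± 0.07 and Dnmt1 by 0.45 ± 0.04. These directions were thus not particular to the double knockout. Zfp352-KO against Parental cells gave 1010 calls (7.06%), and double knockout against Zfp352-KO gave 15 (0.105%), 2 higher and 13 lower. Zfp352 itself did not pass the test between the edited genotypes (-1.99 ± 0.62, adjusted p = 0.447). For 10 genes named in the comparison with Parental cells the difference between edited genotypes was called. Igf2, an imprinted growth factor, stood at 7.13, 7.64 and 6.93 TPM in Parental, 12.8, 10.7 and 12.8 TPM in Zfp352-KO and 5.31, 6.18 and 5.01 TPM in double knockout libraries. It was highest in all 3 Zfp352-KO libraries and lowest in all 3 double knockout libraries, with log2 fold changes of 0.70 ± 0.09 for Zfp352-KO and -0.43 ± 0.10 for double knockout over Parental cells and -1.13 ± 0.10 for double knockout over Zfp352-KO (adjusted p = 7.01e-06). The call of double knockout against Parental was lost for Igf2 without Parental library 1 (0.0564), Parental library 2 (0.0707) or double knockout library 3 (0.0621).

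The other 9 genes were lower in the double knockout than in Zfp352-KO. They had been named after a call lower than Parental in the same double knockout libraries, a choice that favours this direction. Thbs1 was at 12.1, 11.9 and 11.1 TPM in Zfp352-KO libraries, between the Parental and the double knockout libraries, and the difference of the edited genotypes was -0.62 ± 0.07 (adjusted p = 0.000218). Tagln, Acta2 and Flnc of the actin list differed by -0.49 ± 0.08, -0.56 ± 0.10 and -0.40 ± 0.07. Tagln stood at 28.7, 31.3 and 34.4 TPM in Zfp352-KO libraries, below all Parental and above all double knockout libraries. Prss23 differed by -0.73 ± 0.14, with Zfp352-KO libraries at 2.68, 2.78 and 2.73 TPM. Col1a2 differed by -0.62 ± 0.10, with Zfp352-KO libraries at 4.17, 3.92 and 4.3 TPM. For both of these genes, too, the Zfp352-KO libraries lay between the other 2 genotypes. Calcoco2, Nes and Stk31, a kinase-like gene of the germline, differed by -0.43 ± 0.06, -0.37 ± 0.07 and -0.42 ± 0.08. Stk31 stood at 17.6, 18.1 and 16.7 TPM in Parental, 17.2, 17.3 and 15.8 TPM in Zfp352-KO and 11.2, 11.9 and 14.5 TPM in double knockout libraries, so that the 2 first genotypes overlapped and the third lay below both. For the other named genes the difference between edited genotypes did not pass the test, which does not show that it is absent.

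**Figure D5:**
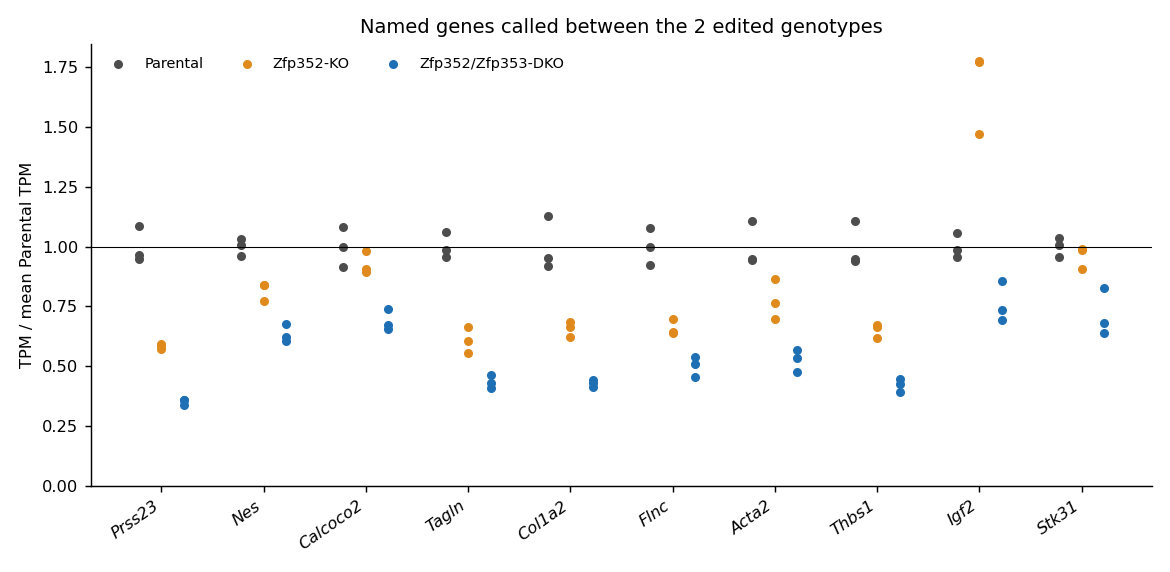
Each point is the TPM of 1 library divided by the mean Parental TPM of that gene, for the 10 named genes called between the edited genotypes; grey, orange and blue points are the 3 Parental, 3 Zfp352-KO and 3 double knockout libraries. The blue points lie lowest for every gene, which the choice of genes called lower than Parental favours, and Igf2 is the gene whose orange points lie above 1.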

How the data were processed

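Polyadenylated RNA was measured in stranded TruSeq libraries read as single ends of 75 bases, per the labels' protocols. Per the submitters' processing notes, RSEM 1.3.3, STAR 2.7.8a and Trim Galore 0.6.6 were used with build mm10. Not given in the sources used here: the annotation release and any use of strand in counting. Per the file headers, the authors deposited an expected count for each of 24411 genes, an RSEM estimate that divides shared reads (9.27% of values were not whole), and TPM, scaled for transcript length and depth. The deposited FPKM values were not used. Of the gene symbols, 24318 matched RefSeq genes of GRCm38.p6, which is mm10, and coordinates are 1-based.

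The main test was edgeR's two-sided quasi-likelihood test (glmQLFTest after glmQLFit; edgeR 4.0.16, R 4.3.3) on rounded expected counts, with filterByExpr and TMM factors of 0.992 to 1.01. It took the 9 libraries together by genotype, which left 6 residual degrees of freedom. Calls are at an adjusted p under 0.05 (Benjamini-Hochberg). The biological coefficient of variation was 4.95%. Tested on simulated counts of the 9 libraries (14161 genes), with changes placed in the double knockout, the fit recovered 80% of 1.5-fold and 86% of 2-fold changes, with 9 false calls. The simulated counts held no length or GC trend, so the number of false calls does not carry over to these libraries. Same-numbered Parental and double knockout libraries deviated together with correlations of 0.0415, 0.0218 and 0.106, and the labels give no shared batch, so the numbers were not taken as pairs.

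The members and the 33 gene lists were chosen with earlier results of these data known, and the lists are described by counts without a test. The named genes are Zfp352; the 15 largest falls and 15 largest rises among called genes that averaged at least 2 TPM in the higher genotype, did not overlap between genotypes in CPM and were not named as clones or predicted genes; the called members with the smallest adjusted p in each list, at most 4; any called gene less than 500 kb from a deleted locus; and Pou5f1, Nanog and Sox2. Other members are named where they define a cell type or bound a range, and were picked after their values were seen. Alternatives used RLE factors, library totals, DESeq2 1.42.0, limma-trend (limma 3.58.1) on log2(TPM + 1) or log2(TPM + 0.1), a replicate block, other filters, a stricter threshold, the 6 libraries alone, removal of length and GC trends (local regression, span 0.3) and omission of each library. The floor of 3 counts for a gene at 0 covers counting error only.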

Additional observations from a re-analysis of the deposited data

Results flagged for a closer look

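For 10 named genes the effect on the comparison with Parental cells differed between the edited genotypes, by a test of double knockout against Zfp352-KO in the same edgeR fit, adjusted over 14300 genes. The log2 differences were -1.13 ± 0.10 for Igf2 (adjusted p = 7.01e-06), -0.62 ± 0.07 for Thbs1 (0.000218), -0.43 ± 0.06 for Calcoco2 (0.00246), -0.49 ± 0.08 for Tagln (0.0153) and -0.62 ± 0.10 for Col1a2 (0.0153). They were -0.40 ± 0.07 for Flnc (0.0265), -0.37 ± 0.07 for Nes (0.0321), -0.56 ± 0.10 for Acta2 (0.0345), -0.42 ± 0.08 for Stk31 (0.0345) and -0.73 ± 0.14 for Prss23 (0.0348). All 10 were lower in the double knockout. They were taken from genes already called between the same double knockout libraries and Parental cells, and all 10 were called lower there. The shared direction is therefore favoured by the choice of genes. Igf2 was the gene with log2 fold changes over Parental cells of opposite sign, 0.70 ± 0.09 in Zfp352-KO and -0.43 ± 0.10 in the double knockout. Whether differences between clones move with these values was not tested.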

How the results depend on the processing

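Against 522 genes called higher and 689 lower (1211 in all), limma-trend gave 193, 385 and 578 on log2(TPM + 1) and 197, 373 and 570 on log2(TPM + 0.1), and an adjusted p under 0.01 gave 134, 333 and 467. The count of rises was 800 with no filter on low counts and 792 with the length and GC trends removed. Adding the replicate block, although the numbers were not taken as pairs, gave 333 rises and 867 calls in all. Omitting 1 library gave 123 to 697 rises, 326 to 726 falls and 449 to 1337 calls; the totals changed most without Parental library 1 (449), double knockout library 2 (646), Parental library 2 (649) and double knockout library 3 (686). RLE factors, library totals, DESeq2 (965), a minimum of 1 CPM in 3 libraries and the 6 libraries alone gave totals within 1.5 times the main count. The trend removal left 54.2% of calls as rises, against 43.1%. Of 126 called named genes, 85 kept the call in every alternative that tested the gene at an adjusted p under 0.05. The stricter threshold was left out of this count. Of 2428 values of named genes under these alternatives, 266 kept the direction without the call and 0 changed direction. The cause of these shifts was not tested. Genes under about 1 TPM rest on few counts, so that changes there could be called only where they were large.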

Other observations

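Outside the 33 lists, the 15 genes with the smallest adjusted p were taken after their values were seen. All but Manba, a lysosomal mannosidase (0.39 ± 0.04), were lower in the double knockout. Sfn (stratifin), an epithelial 14-3-3 protein, stood at 104, 98.8 and 106 TPM in Parental and 56.5, 53.4 and 52.9 TPM in double knockout libraries, a log2 fold change of -0.96 ± 0.06 (adjusted p = 2.54e-09). Car2, a carbonic anhydrase, Capn2, a calpain protease, and Lgals1 (galectin 1) changed by -0.77 ± 0.07, -0.74 ± 0.07 and -0.53 ± 0.06. Lgals1 was the most abundant of the 15, at 343, 314 and 340.0 TPM in the Parental libraries and 241, 243 and 224 TPM in the double knockout libraries. The groups did not overlap for any of the 15, and they did not for 28.1% of all tested genes.

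Others of the 15 are named here without a test of a shared function. Bmp1, which trims the ends of procollagen chains, was at 5.51, 6.48 and 6.31 TPM in the Parental libraries and 3.41, 2.44 and 3.2 TPM in the double knockout libraries and changed by -1.04 ± 0.12. Col7a1, the anchoring fibril collagen, changed by -1.02 ± 0.11 and Clu (clusterin) by -0.79 ± 0.08. Csf1, the macrophage growth factor, fell from 4.13, 3.48 and 4.28 TPM to 1.29, 1.63 and 2.18 TPM (-1.31 ± 0.15). Wls, which carries WNT ligands to the cell surface, was at 9.14, 8.07 and 8.61 TPM and 4.54, 4.23 and 4.24 TPM and changed by -1.02 ± 0.10, in the same direction as Wnt4. Sprr2a1 and Sprr2a2 had identical values in every library (-5.42 ± 0.53 for each), so they count as 1 measurement.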
